A study of Mus musculus with 8 samples.

Results

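The genes described here encode the chains of collagens, laminins and integrins, which build the extracellular matrix and hold cells to it. They were chosen by name, as symbols that begin with Col, Lam or Itg followed by the numbering of a chain, and by abundance, as a mean of 10 or more counts over all libraries. Of 17597 gene rows, 76 had such a name, and 54 of these reached the minimum. The 54 comprised 26 collagen genes (8 fibrillar, 3 of type IV and 15 others), 9 laminin genes, 8 integrin alpha genes, 7 integrin beta genes and 4 genes that are named after a chain but encode a different protein.

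Total RNA, by the molecule label and the methods, was sequenced from mouse embryonic stem (mES) cells whose METTL3, an enzyme that adds m6A to RNA, carries a C-terminal FKBP12F36V degron, a domain that directs the protein to destruction when the small molecule dTAG-13 is added. The cells have 2 X chromosomes and a mixed Cast and 129S strain background, and in all of them the promoter of endogenous Xist on 1 allele was exchanged for a TetOn promoter, which stayed uninduced because no doxycycline was given. Cells that received dTAG-13 during 26 hours gave 4 libraries and cells without it gave the other 4, and each group holds 2 replicates of C3 and 2 of H5, which are clonal lines. The cells were grown in serum and leukemia inhibitory factor on inactivated mouse fibroblasts, known as feeders, so the RNA could hold transcripts of both cell types, and in bulk RNA fewer cells of a type and less RNA per cell cannot be told apart. The study compared the groups to find direct effects of METTL3 loss. That contrast is not analysed here, because beside the columns of the authors' own comparison the table used here gives only 1 value per gene, the mean over all 8 libraries. All levels below are that mean, they mix treated and untreated cells, they have no spread between libraries, and differences between genes are therefore given without a test.

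Collagens are trimers wound into a triple helix, which requires glycine at regular spacing along each chain. Fibrillar collagens (types I, II, III, V and XI among them) have long uninterrupted helices that pack into the fibrils of connective tissue, and fibroblasts are their best-known source. Type IV collagens have an interrupted helix and form a network in the basement membrane, the thin sheet under epithelia, together with laminins, which are trimers of an alpha, a beta and a gamma chain. Integrins, dimers of an alpha and a beta subunit, are the cell surface receptors for these proteins, and the embryo's first basement membrane appears around the time of implantation, close to the stage that mES cells represent.

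The difference in helix between both collagen families is visible in the exons that encode them. The 4 coding exons below are shown because they come from the best-known fibrillar chain, from the fibrillar chain with the highest mean count in these libraries and from both abundant type IV chains. They are read 5′ to 3′ on the coding strand from the mouse build GRCm38 (mm10), and capitals mark codons for glycine that lie in the reading frame. The first is coding exon 8 of Col1a1 (chr11:94939904-94939957, plus strand), the next coding exon 15 of Col5a1 (chr2:27965251-27965304, plus strand), and then follow coding exon 9 of Col4a1 (chr8:11244486-11244569, minus strand) and coding exon 18 of Col4a2 (chr8:11415364-11415474, plus strand).
Col1a1: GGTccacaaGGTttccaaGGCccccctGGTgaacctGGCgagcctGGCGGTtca
Col5a1: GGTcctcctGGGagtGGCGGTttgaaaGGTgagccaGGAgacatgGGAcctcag
Col4a1: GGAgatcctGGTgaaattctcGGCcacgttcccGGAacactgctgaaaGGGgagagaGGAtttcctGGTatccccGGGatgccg
Col4a2: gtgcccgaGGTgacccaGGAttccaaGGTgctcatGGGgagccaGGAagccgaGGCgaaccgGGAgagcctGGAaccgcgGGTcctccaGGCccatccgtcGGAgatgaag

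The Col1a1 and Col5a1 exons were each 54 bases long and held 7 glycine codons among 18 codons. The Col4a1 exon had 84 bases with 8 glycine codons among 28, and the Col4a2 exon had 111 bases with 11 glycine codons among 36 whole codons, with places where the spacing was broken. The same contrast held over the whole genes. In the 8 fibrillar members the longest run of glycine codons spaced 3 codons apart spanned 217 to 339 repeats, with a median of 338, and each coding sequence held 2 to 4 runs of at least 4 repeats. In the 3 type IV members the longest run spanned 40 to 66 repeats, and the repeats were split into 22 to 24 runs. The 15 other collagen members varied more, with longest runs of 23 to 113 repeats in 2 to 21 runs.

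Exon lengths followed the same division. Of 456 inner coding exons in the fibrillar members, 379 (83.1%) had a length that is a multiple of 9 bases, the length of 1 repeat, and 217 (47.6%) were exactly 54 bases long. In the type IV members 64 of 146 inner exons (43.8%) were multiples of 9 and 6 (4.11%) had 54 bases. Laminins, which have no collagen helix, had multiples of 9 in 14.7% of inner exons, integrin alpha genes in 15.0% and integrin beta genes in 15.9%, and none of these exons had 54 bases.

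To compare genes, each mean count was divided by the length in kb of the gene's longest annotated transcript, which gives a level. Of all 17597 gene rows 13590 reached the minimum mean count of 10, a share to hold beside the counts of list genes below. The median level of the 13463 genes that reached it and have a known length was 109. Percentiles of level below refer to these genes, and by definition as many of them lie above the median gene as below it. All members together held 31424.5 mean counts of 14573411 over all gene rows, a share of 0.216% (95% exact binomial interval 0.213% to 0.218%, here and below for counting error in an average library alone). Across the members the level ran from 1.93 for Col22a1 to 1039 for Itgb1, with a median of 18.9, and 11 of 54 lay above the median gene.

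The identity of the culture was checked first against marker genes. Mettl3 RNA itself had a mean count of 684 and a level of 317, a value that does not show whether the protein was removed, since the degron acts on protein. All 12 mES cell markers were present, at levels of 467 to 16142, led by Dppa5a at 16142, the pluripotency factor Pou5f1 at 8762 and Zfp42 at 4956. Of 18 fibroblast markers 17 had a row and 11 of these reached a mean count of 10, with a summed level of 3059 that came mainly from Sparc at 1327, Vim at 708 and Fn1 at 594. These leading genes encode an abundant matrix-binding glycoprotein, an intermediate filament and fibronectin, and they are known from many cell types. The other 14 rows differed widely. Tagln, a smooth muscle actin-binding protein, lay above the median gene at a mean count of 345 and a level of 217. A further 6, namely Fbn1, Thy1, Acta2, Loxl1, Twist1 and Pdgfra, had mean counts of 361, 116, 103, 72.7, 49.6 and 39.1. The lowest 7 were Pdgfrb at 10.8, Dcn at 7.50, Prrx1 at 5.82, Meox2 at 4.35, Lum at 1.45, Postn at 0.768 and Twist2 at 0.421. The share of these signals that came from feeders was not tested.

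Fibrillar collagens were low as a class. The 8 members had levels of 2.58 to 26.9 with a median of 8.41, none reached the median gene, and their median percentile was 10.2. Col5a1, a chain that joins type I collagen in fibrils and governs their width, had the highest value, with a mean count of 226 and a level of 26.9 (24.7th percentile), and it lies on chromosome 2 at positions 27886425 to 28039514. It was followed by Col2a1, the main collagen of cartilage, with a mean count of 94.2 and a level of 18.5, and by Col5a2, the partner chain of Col5a1, with a mean count of 90.5 and a level of 13.7. The remaining type V chain, Col5a3, came next with a mean count of 58.1 and a level of 9.49.

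Lower still were Col27a1, a fibrillar collagen of cartilage, with a mean count of 55.8 and a level of 7.34, and Col11a1, which nucleates cartilage fibrils, with a mean count of 54.4 and a level of 7.09. The chains that dominate fibroblast matrix had the lowest levels of the fibrillar members on this scale. Col1a1 (chromosome 11, 94936224 to 94953042) was read at a mean count of 19.8, a level of 3.34 and the 2.41st percentile. Its partner Col1a2 had a mean count of 13.8 and a level of 2.58. Col3a1, which accompanies type I collagen in soft tissue, had a mean count of 8.38 and fell below the minimum, as did Col24a1 with 3.22 and Col11a2 with 1.94. Col5a1 had a level 8.04 times that of Col1a1, a ratio that dropped to 1.03 when the median transcript length of each gene replaced the longest. The order itself changed with that length, with Col2a1 at a level of 138, Col5a1 at 47.8, Col1a1 at 46.3 and Col5a2 at 36.8.

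**Figure D1:**
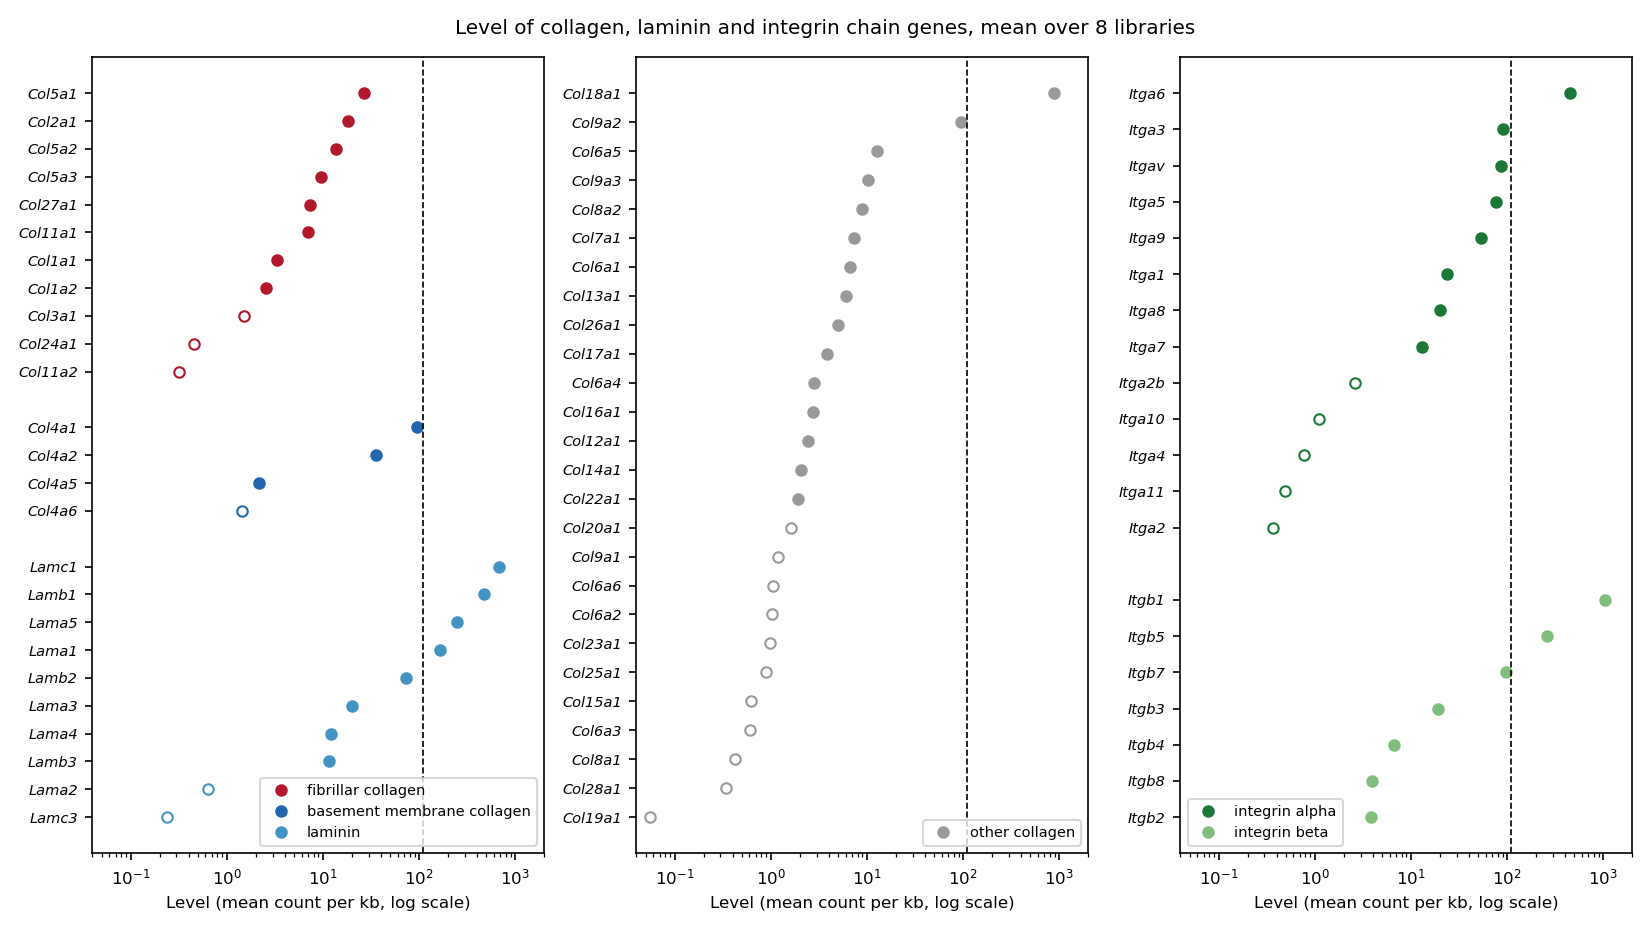
Level of the collagen, laminin and integrin chain genes as mean count per kb of the longest transcript (x axis, log scale), mean over 8 libraries, with genes on the y axis by class, filled for a mean count of at least 10 and open below it. The dashed line is the median level of 109 over the genes of the background. All fibrillar collagens lie left of it, while Lamc1, Lamb1, Lama5, Lama1, Col18a1, Itga6, Itgb1 and Itgb5 lie right of it.

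Type IV collagens were uneven, with Col4a1 and Col4a2 above the type I chains and the X-linked chains in their range or below. Col4a1 (chromosome 8, 11198423 to 11312826) was close to the median gene, at a mean count of 635 and a level of 96.0 (47.2nd percentile). Col4a2 (chromosome 8, 11312805 to 11449287) gave a mean count of 232 and a level of 36.0. Their products assemble as a trimer with more Col4a1 than Col4a2 chains, and the level of Col4a1 was 2.67 times that of Col4a2. Both genes start from a shared region on opposite strands: their annotated RefSeq starts lie 21 bases apart, at 11312826 and 11312805, and their exons overlap by 22 bases. The X-linked pair is arranged in the same way with starts 1343 bases apart. Both of its genes were near the minimum mean count that defines the members. Col4a5 had a mean count of 14.1 and a level of 2.16, and Col4a6 had a mean count of 9.55. Col4a3 and Col4a4, the chains of the kidney filter, had no row and are not analysed here.

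Laminins held most of the summed level of the type IV and laminin classes, which leave out other basement membrane genes such as Col18a1. Lamc1 (chromosome 1, 153218922 to 153332786), the gamma chain common to most laminins, had a mean count of 5167 and a level of 678 (87.1st percentile), the highest of all collagen and laminin genes other than Col18a1. Lamb1, the beta chain that pairs with it in the early embryo, had a mean count of 2737 and a level of 473. The alpha chains Lama5 and Lama1, which define the laminins of the early embryo, had mean counts of 2858 and 1594 and levels of 251 and 167. The gene set that encodes the embryonic trimers was thus above the median gene in all 4 chains.

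The chains known best from epithelia attached to underlying tissue were lower, Lama3 with a mean count of 211 and a level of 20.0 and Lamb3 with a mean count of 56.5 and a level of 11.6. The other beta chain, Lamb2, had a mean count of 412 and a level of 73.3, and Lama4, an alpha chain of blood vessel walls, had a mean count of 73.9 and a level of 12.2. Lama2, the alpha chain of muscle, and Lamc3 stayed below the minimum with mean counts of 6.07 and 1.41.

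Summed by chain position, laminin levels came to 451 for alpha and 558 for beta chains. A single gene held most of each sum, with Lama5 at 55.7% of alpha and Lamb1 at 84.8% of beta. That order of alpha and beta held only with the longest transcript. Alpha was higher with the merged length of all exons (441 against 352), with the median transcript length (5409 against 2031) and in mean counts (4737 against 3206).

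The comparison of fibrillar with basement membrane genes set 8 fibrillar members beside 12 members of the type IV and laminin classes. Col18a1, a basement membrane collagen described below, was placed among the other collagens and is on neither side. The summed level was 88.8 for the former and 1931 for the latter, a ratio of 21.7 in favour of the basement membrane genes. Fibrillar collagens thus made up 4.40% of both together. An approximate 95% interval of 4.08% to 4.73% came from treating this share of level as a share of the summed mean counts. The share of the mean counts themselves was 4.04%. The median level was 8.41 against 84.6, a ratio of 10.1 or 3.33 on the log2 scale. That log2 ratio was 2.34 over all rows with no minimum and 2.04 at a minimum of 100. The ranges overlapped, since Lama3, Lama4, Lamb3 and Col4a5 lay below Col5a1. Most of the gap came from laminins: with type IV collagens as the only basement membrane genes, the fibrillar share was 39.8%. With the median transcript length the share was 2.18%.

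Among the 15 other collagen members 1 gene stood far above the rest. Col18a1 (chromosome 10, 77052178 to 77166548), a basement membrane collagen with heparan sulfate chains whose end is released as endostatin, had a mean count of 4944 and a level of 884 (90.3rd percentile), which was 83.9% of the summed level of this class. Col9a2, a chain of the type IX collagen that decorates cartilage fibrils, had a mean count of 281 and a level of 96.0. It was followed by Col6a5 with a mean count of 119 and a level of 12.8, by Col9a3 with a mean count of 31.7 and a level of 10.4, and by Col8a2, a chain of a network collagen of the cornea, with a mean count of 38.5 and a level of 8.89. The other 10 (Col7a1, Col6a1, Col13a1, Col26a1, Col17a1, Col6a4, Col16a1, Col12a1, Col14a1 and Col22a1) had levels of 1.93 to 7.40. A further 11 rows of this class were below the minimum.

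Integrin beta genes were led by Itgb1 (chromosome 8, 128685654 to 128733200), the subunit that pairs with most alpha chains, which had a mean count of 3963 and the highest level of all members, 1039 (92.0th percentile). Itgb5, which pairs with Itgav, had a mean count of 857 and a level of 261. Itgb7, known from lymphocytes, had a mean count of 261 and a level of 97.3, and Itgb3, the platelet beta subunit, had a mean count of 112 and a level of 19.3. Itgb4, which binds laminin in hemidesmosomes, had a mean count of 41.5 and a level of 6.68. The remaining members were Itgb8 at 3.90 and the leukocyte subunit Itgb2 at 3.81.

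Of the integrin alpha genes, Itga6, a laminin receptor subunit and a common surface marker of stem cells, had a mean count of 1952 and a level of 453 (80.8th percentile), which was 55.3% of the alpha sum. Itga3, also a laminin receptor subunit, had a mean count of 446 and a level of 91.8. The subunits of fibronectin and vitronectin receptors were close to it, Itgav with a mean count of 612 and a level of 86.8 and Itga5 with a mean count of 337 and a level of 76.3. Itga9, a receptor subunit for tenascin among other ligands, had a mean count of 379 and stood at the 35.9th percentile. The other members were Itga1 (24.1), Itga8 (20.3) and Itga7 (13.1), while the platelet subunit Itga2b, Itga10, Itga4, Itga11 and Itga2 were below the minimum. The summed level was 819 for alpha and 1431 for beta subunits, and beta stayed higher under every length tried.

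The 4 members that encode no chain had middling levels. Itgb1bp1, an intracellular protein that binds the tail of the beta subunit Itgb1, had a mean count of 274 and a level of 143. Col4a3bp, which carries ceramide between membranes, had a mean count of 708 and a level of 134. Itgb3bp, a centromere protein, had a mean count of 147 and a level of 43.3, and Itgb1bp2, a muscle chaperone, had a mean count of 25.9 and a level of 19.7. Without them 50 chain genes remained.

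Chains that are known to share a protein were set side by side, with pairs chosen after their values were seen. Col1a1 exceeded Col1a2 1.29-fold, or 2.72-fold with merged exons and 6.82-fold with the median transcript length, and Col5a1 exceeded Col5a2 1.97-fold. The ratio of Col4a5 to Col4a6 was 1.50 and turned to 0.931 with the median transcript length. Type IX chains were uneven in level, since Col9a2 had a level 9.23 times that of Col9a3 and 80.5 times that of Col9a1. The mean count of Col9a1 was only 4.57, below the minimum. Col9a3 also shares 234 exon bases with the opposite-strand gene Tcfl5, which had a mean count of 684. Col6a1 exceeded Col6a2 6.39-fold, at mean counts of 27.1 and 5.09, and Col6a2 was below the minimum.

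Among laminins, Lamc1 exceeded Lamb1 1.43-fold (5.06-fold with the median transcript length) and also exceeded Lama5, by 1.19-fold with that length and 2.49-fold with merged exons. Among integrins, Itgb1 was 2.29 times as abundant as Itga6 and Itgb5 was 3.01 times as abundant as Itgav. Pairs in which 1 subunit lay far below the other also occurred. Itga6 exceeded Itgb4, its alternative partner to Itgb1, 67.8-fold. Itgb7 exceeded its known partners Itga4 and Itgae 127-fold and 28.1-fold, at a mean count of 261 against 7.49 and 13.3. With merged exons the ratios were 36.6 for Itga6 over Itgb4, 176 for Itgb7 over Itga4 and 32.4 for Itgb7 over Itgae.

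**Figure D2:**
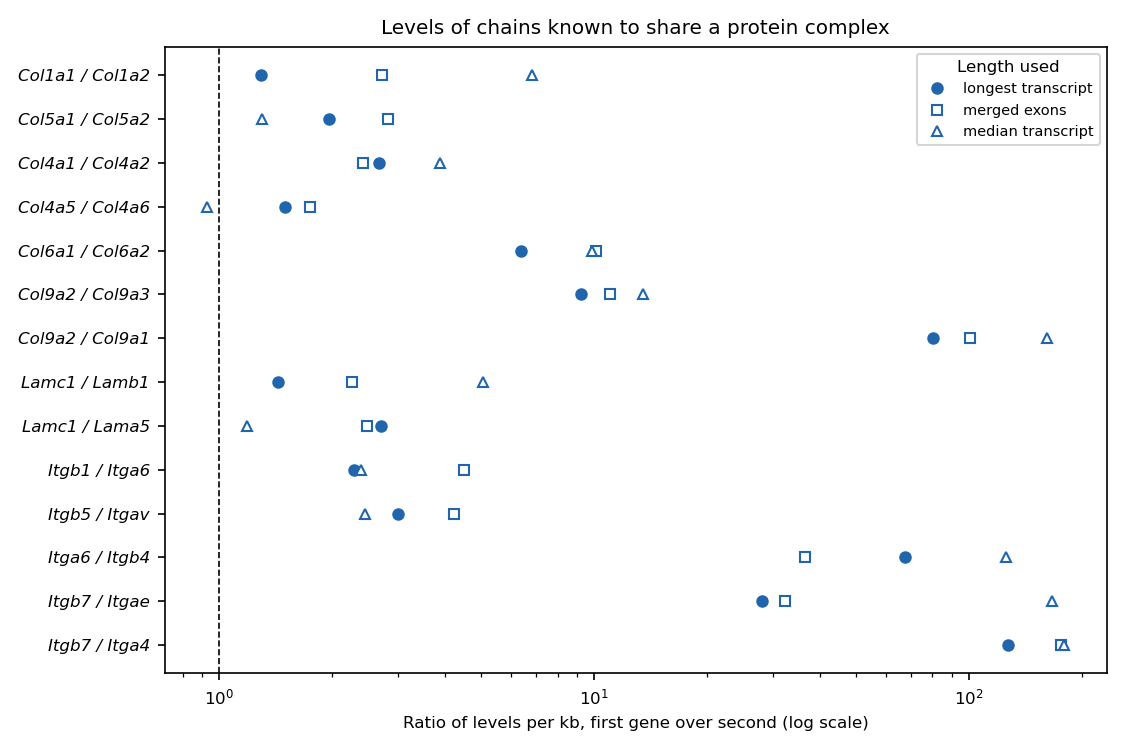
Ratio of levels per kb between 14 pairs of chains known to join in 1 protein (x axis, log scale, first gene over second), computed with the longest transcript (filled circles), merged exons (open squares) or median transcript length (open triangles). The dashed line is equal levels, and only the ratio of Col4a5 to Col4a6 crosses it between lengths.

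The minimum that defines the members cut through a continuous range. Just inside were Itgb2 with a mean count of 11.3, Col14a1 with 13.4 and Col1a2 with 13.8, and just outside were Col4a6 with 9.55, Col6a6 with 9.31 and Itga2b with 8.94. No row was listed for Col10a1, Col4a3, Col4a4, Itgb2l or Itgb6, which are not analysed here.

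Other genes of the same pathways were read from short lists of known components, chosen with earlier results of these data known. Of 30 enzymes and chaperones of collagen maturation, 28 reached the minimum and 13 lay above the median gene. Over all gene rows 13590 of 17597 reached the minimum. The most abundant were P4hb, a subunit of the enzyme that hydroxylates proline in collagen, at a level of 2437, the proline isomerase Ppib at 845 and Mia3, which loads collagen for export, at 564. Serpinh1, the collagen chaperone, was added after its value was seen, and had a level of 404, 121 times that of Col1a1 (9.31 times with the median transcript length). That ratio depends on the collagen chosen, since Col4a1 had a level of 96.0 and Col18a1, at 884, lay above Serpinh1.

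Of 13 other basement membrane genes 12 reached the minimum and 6 lay above the median gene, led by Nid2, which links laminin to type IV collagen, at 1002. It was followed by the laminin receptors Bcam at 537 and Dag1 at 263. Of 16 other matrix genes of fibroblasts 10 reached the minimum and 2 lay above the median gene, namely Fn1 at 594 and the proteoglycan Vcan at 161, with Fbln1, a fibulin, at 99.1. On this list Fn1, Fbn1, Dcn, Lum and Postn were also counted among the fibroblast markers above, so both lists are not separate readings. Of 16 genes that join integrins to the cytoskeleton 15 reached the minimum and 9 lay above the median gene, with the integrin activator Fermt2 at 491, the kinase Ptk2 at 370 and vinculin (Vcl) at 366. Of the genes that reached the minimum, 6 of 12 basement membrane, 9 of 15 adhesion and 2 of 10 fibroblast matrix genes thus lay above the median gene. The basement membrane share equals that of the background genes by definition. The order of the lists depends on the genes chosen for them, and is a description with no test.

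**Figure D3:**
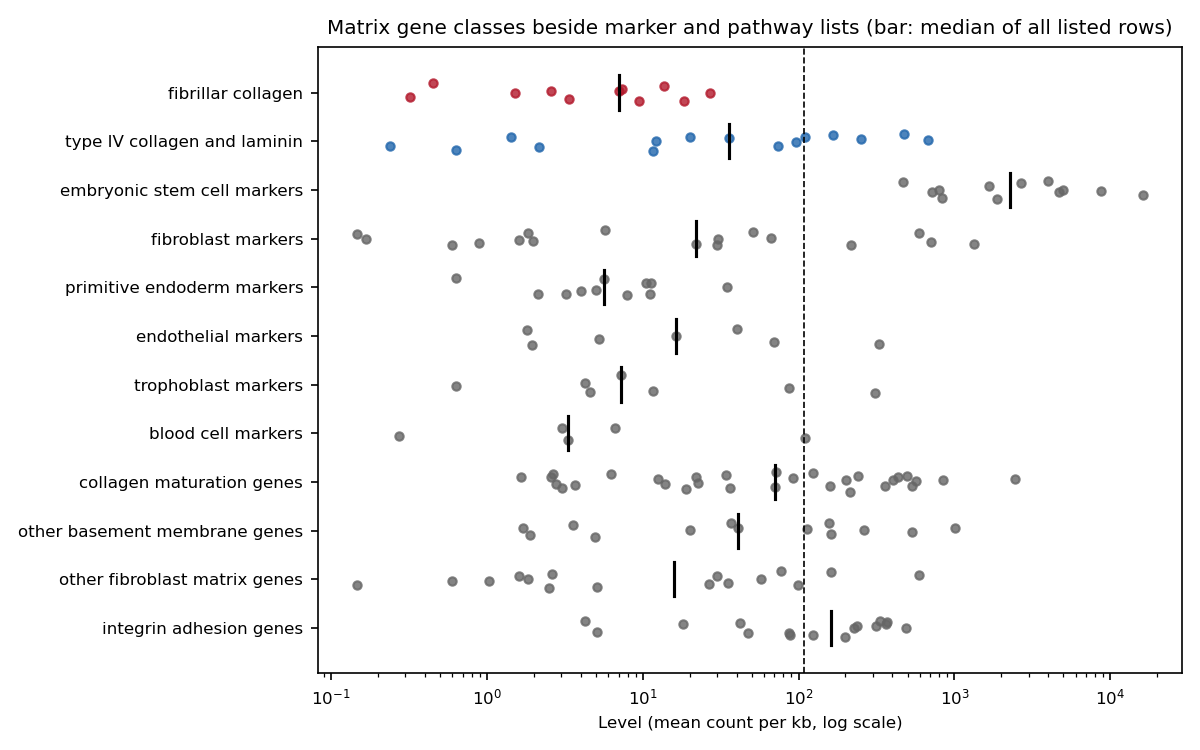
Level of each gene as mean count per kb (x axis, log scale) for the fibrillar and basement membrane chains and for 10 marker and pathway lists (y axis), with 1 point per gene row and a bar at the median of all rows of the list, rows below the minimum included. The dashed line is the median gene at 109, and all 12 mES cell markers lie right of it, while all fibrillar collagens lie left.

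Markers of another cell type that makes basement membrane were low. For primitive endoderm, the first lineage of the embryo to lay down much type IV collagen and laminin, 9 of 11 rows reached the minimum and none lay above the median gene, the highest being Dab2 at 34.8, Foxa2 at 11.3 and Amn at 11.1. The defining factors Gata4, Gata6 and Sox17 had mean counts of 19.3, 8.04 and 10.5. The summed level of this list was 96.4. The part of such cells in the basement membrane levels was not tested.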

How the data were processed

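Total RNA libraries of 8 samples (4 treated with dTAG-13, 4 untreated) were sequenced after depletion of ribosomal RNA. The molecule label and the methods give total RNA, whereas the extraction protocol among the labels is one for chromatin-bound RNA. The values were read as total RNA, and in chromatin RNA unspliced transcripts would weigh more. Per the methods, the authors removed ribosomal reads with bowtie2, aligned the rest uniquely with STAR to a strain-masked mm10 genome, removed duplicates with Picard and counted genes and transposable elements with TEtranscripts. The deposited table holds, per row, a mean normalized count over all libraries, which is the signal used here, and 5 columns of the authors' own comparison (fold change, its error, statistic and p-values), which were not used. It has 17597 gene rows and 1097 transposable element rows, and its mean counts sum to 16292717, the depth of an average library after normalization.

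Symbols were matched to GENCODE M21 (GRCm38), 16660 directly and 715 by an older symbol, which gave 98.7% of gene rows a length. Level is the mean count per kb (1000 bases) of the longest transcript. Merged exon length, median transcript length, no length and other minimums were tried. Binomial intervals (95%, Clopper-Pearson) cover counting error only. For the fibrillar share the interval is approximate, because it takes a share of level as a share of counts. Runs of glycine codons were counted in the annotated coding sequences from 4 repeats up, and start sites came from RefSeq on GRCm38.p6. Python 3.11.15, pandas 2.3.3, SciPy 1.17.1 and Biopython 1.88 were used.

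The genes named were every fibrillar, type IV and laminin member other than 1 that is not reported here by itself, the top 5 by level of the other collagen, integrin alpha and integrin beta classes, the members that encode no chain, 3 on each side of the minimum and the top 3 of each list. Others are named to account for each member or were chosen after their values were seen. The members and lists were chosen with earlier results of these data known.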

Additional observations from a re-analysis of the deposited data

How the results depend on the processing

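The excess of basement membrane over fibrillar levels kept its direction under every alternative run, while its size moved. The fibrillar share, 4.40%, was 4.02% with merged exons, 2.18% with the median transcript length, 4.04% with no length, 1.39% at a minimum mean count of 100 and 39.8% against type IV collagens alone. The log2 ratio of medians, 3.33, was 4.01 with the median transcript length, 2.34 with no minimum, 2.04 at a minimum of 100 and 2.10 against type IV collagens alone. The number of members was 36 at a minimum of 50 and 27 at a minimum of 100, and the members' share of counts was 0.193% with transposable element rows in the total. The other alternatives moved the number of members by less than 1.5 times and kept the share or the log2 ratio within its approximate interval. No paired analysis was possible because the values used are means over all libraries and come from no test. For the same reason no library could be left out, no depth per library is known, and a gene near a mean count of 10 rests on few reads per library.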

Other observations

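Markers of endothelial, trophoblast and blood cells lay mostly below the median gene, with 1 above it in each list. Of 7 endothelial marker rows 5 had a mean count of at least 10, and the highest levels per kb were 328 for Pecam1, which mES cells are also known to make, 69.7 for Tek and 40.3 for Esam. Of 7 trophoblast markers 4 reached the minimum, with Tfap2c at 309, Eomes at 86.4 and Krt7 at 11.7. Of 5 blood cell marker rows 1 did, Laptm5 at 111, followed by Fcer1g at 6.67 and Spi1 at 3.32. The leukocyte integrin subunits whose names lie outside the number pattern were low as well, with levels of 6.59 for Itgal, 3.47 for Itgae and 0.147 for Itgax, and a mean count of 11.3 for Itgam, values looked up after those of their beta partners Itgb2 and Itgb7 were seen.

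Exons of 7 members overlap an exon of a gene on the opposite strand, and none overlaps one on the same strand. The largest overlaps were 402 bases of Itgb1bp1 with Asap2, 398 bases of Itgb3bp with Pgm1, 372 bases of Itga8 with E030013I19Rik and 234 bases of Col9a3 with Tcfl5. Itgb1bp1, at a mean count of 274, also shares 196 exon bases with Cpsf3, which had a mean count of 1963. The sources used here point both ways on strand, since the methods name default counting settings while the table is labelled as reverse. If strand was not used, the reads of such a pair cannot be told apart.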
